A study of Mus musculus with 8 samples.

Results

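A set of 8 regulators of the decay and silencing of AU-rich messenger RNAs was followed through exposure to bisphenol A: Zfp36, Zfp36l1, Zfp36l2, Elavl1, Khsrp, Tnrc6a, Btg1 and Btg2. The genes were chosen with earlier results of these data known. Every probe set annotated with exactly 1 of these symbols was taken, whatever its values. This gave 20 of the 22690 probe sets, in 7 of the 8 genes and of 12393 genes with a probe set of their own. No signal of Khsrp was analysed here. The cells were TTE3, a mouse Sertoli cell line derived from mice that carry a temperature-sensitive SV40 large T antigen as a transgene, so all groups share this antigen. Bisphenol A (BPA), a building block of polycarbonate that acts as a weak estrogen, was applied at 0.2 mM for 0, 3, 6 or 12 h. RNA from each time was measured on 2 Affymetrix Mouse Expression 430A arrays, 8 arrays in all. Untreated cells kept for 3, 6 or 12 h were not analysed here, so BPA and time in culture cannot be told apart. Whether paired arrays stem from separate cultures is not stated in the labels, and the p-values therefore cover only the spread among these samples, possibly a technical one.

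Many messenger RNAs of growth factors, cytokines and early transcription factors carry AU-rich elements in their 3' untranslated region. ZFP36 (tristetraprolin) and its relatives ZFP36L1 and ZFP36L2 bind such elements and recruit the CCR4-NOT deadenylase, which shortens the poly(A) tail before the transcript is degraded, whereas ELAVL1 (HuR) binds similar sequences and stabilises many of the transcripts. TNRC6A (GW182) joins Argonaute, loaded with a microRNA, to deadenylases, and BTG1 and BTG2 bind the deadenylase itself.

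Signals are the authors' linear intensities, 1 per probe set and array, and their precision is limited by the number of arrays. Changes were tested on log2(signal + 7.9) with limma over all 8 arrays, and a change was called at an adjusted p (Benjamini-Hochberg over all 15838 probe sets tested) under 0.05. Replicate arrays correlated at 0.970 to 0.982 over the tested probe sets, and the 3' to 5' signal ratio of the Gapdh controls was 0.713 to 0.820 on all arrays. Of 15 Sertoli cell markers, 13 were on the table and 10 were bright enough to test; Clu, Kitl and Gata4 were among these, whereas Amh, Dhh and Cldn11 were not. The summed signal of the 13 markers was 10372.9 to 10656.4 at 0 h, 9630.2 to 10221.7 at 3 h, 7928.5 to 7973.2 at 6 h and 5844 to 6938.3 at 12 h, but Clu alone made up most of this sum, with a mean signal of 7650.5 at 0 h and 3409.2 at 12 h. The markers differed in direction at 12 h: Clu (-1.17) and Inhbb (-0.99) fell, Sox9 (1.55) and Gata4 (0.50) rose, and Kitl was not called (-0.11). The 6 peritubular and fibroblast markers, of which 4 were tested, summed to 8649.4 to 8713.4 at 0 h, 6242.8 to 6518.9 at 3 h, 5183.1 to 5622.4 at 6 h and 4169.3 to 4951 at 12 h. Nearly all of this was Dcn, which fell by 0.98 at 12 h, whereas Acta2 (0.18), Des (-0.01) and Pdgfra (1.03) were not called. The sums therefore follow single genes, and their part in the results was not tested. In bulk RNA fewer cells of a type cannot be told apart from less RNA per cell.

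The member genes parted in opposite directions. Zfp36, Zfp36l1, Zfp36l2, Btg1 and Btg2 rose within 3 h, Tnrc6a fell at all 3 later times, and Elavl1 was not called at any time. At 3 h, 12 of the 18 tested member probe sets were called, 7 higher and 5 lower, where 8.78% of all tested probe sets were called, 5.91% higher and 2.87% lower. At 6 h 11 were called, 5 higher and 6 lower, against 21.8% of all probe sets (13% higher and 8.84% lower). At 12 h 10 were called, 4 higher and 6 lower, against 33.4% of all probe sets (17% higher and 16.4% lower). The higher calls came from 5 genes at 3 h, 4 at 6 h and 3 at 12 h, whereas all lower calls were of Tnrc6a. The median log2 change of the 18 probe sets was 0.14 at 3 h, -0.02 at 6 h and -0.15 at 12 h, beside 0.04, 0.04 and 0.03 over all probe sets. Over the whole time course, limma's moderated F test called 13 of the 18, against 29.3% of all probe sets. Because the members were chosen with earlier results of these data known, their counts beside these shares are a description.

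The 3 h count moved with single arrays. It was 5 without 0 h array 1, 4 without 0 h array 2, 6 without 3 h array 1 and 4 without 3 h array 2, and the Tnrc6a calls of this time were mostly lost. Scaling all arrays to the same median shifted the log2 change of the median probe set at 3 h to -0.09 and at 6 h to -0.07. It also moved the share of higher calls among all calls to 39.0% from 67.3% at 3 h and to 42.0% from 59.5% at 6 h. Under that scaling the members split into 5 higher and 6 lower at 3 h, 4 higher and 6 lower at 6 h, and 4 higher and 6 lower at 12 h. Without the intensity trend in limma, both Zfp36l1 calls at 12 h, the Zfp36l2 call, the Btg1 calls at 3 and 6 h and the Tnrc6a calls of 1439244_a_at (3 and 6 h), 1455141_at and 1425036_a_at (3 h) were lost, with adjusted p of 0.0569 to 0.151. Without the filter on dim probe sets the same 4 Tnrc6a calls and the 12 h call of Zfp36l1 1422528_a_at were lost (0.0567 to 0.0807).

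**Figure D1:**
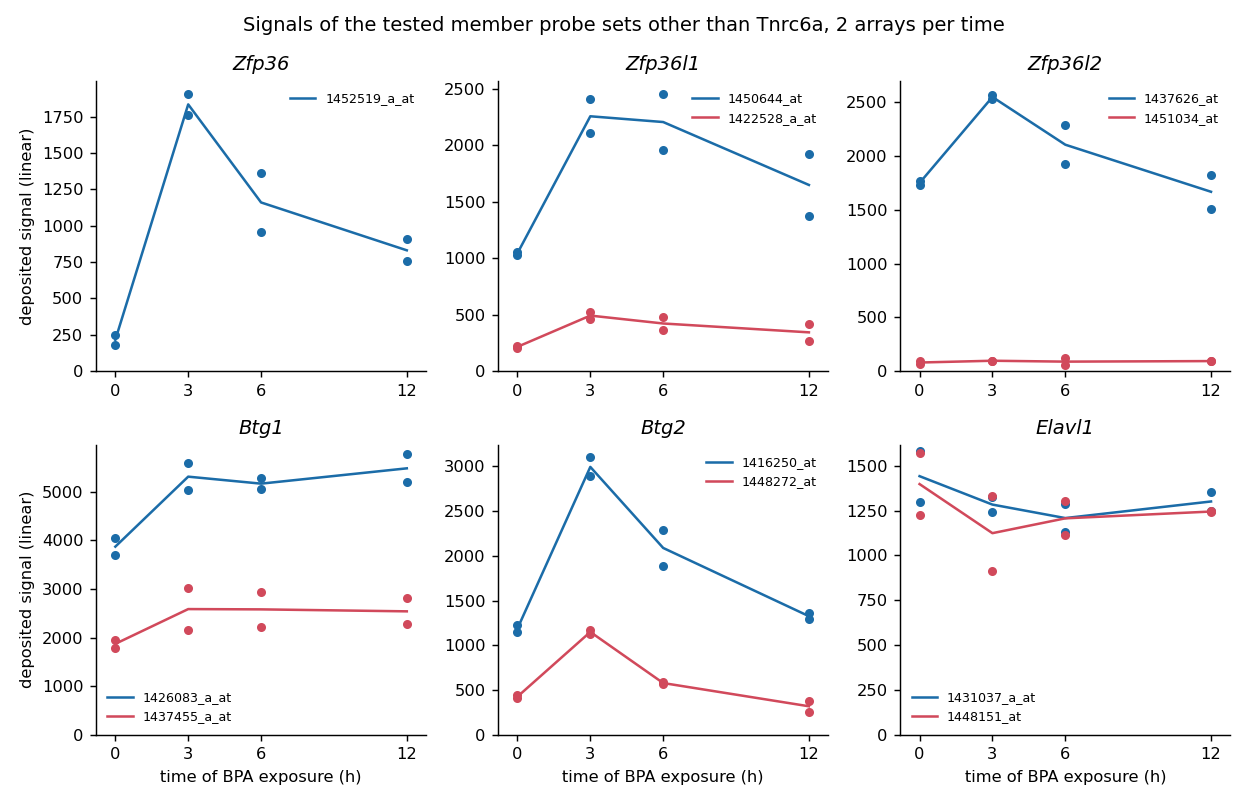
Deposited signal of each array (points, linear axis from 0) against hours of BPA exposure for the tested probe sets of 6 member genes, 1 panel per gene and 1 colour per probe set, with lines joining the means of the 2 arrays of a time. Zfp36 peaks at 3 h with 1760.5 and 1909.3 and stays above its 0 h arrays, 1416250_at of Btg2 reads 1356.3 and 1296 at 12 h, close to its 0 h signals, and the Elavl1 points of different times lie close together.

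Zfp36, the best studied destabiliser of AU-rich transcripts, showed the largest rise of the member probe sets at each of the 3 times. Its probe set 1452519_a_at read 249.4 and 182.1 at 0 h, 1760.5 and 1909.3 at 3 h, 1362.5 and 958.4 at 6 h, and 755.7 and 906.7 at 12 h. All 6 later arrays lay above both 0 h arrays, as they did for 18.4% of all tested probe sets, and the 3 h pair was the highest. The log2 change was 3.06 ± 0.19 (SE, adjusted p = 1.3e-06, limma) at 3 h, an 8.33-fold rise that ranked 12 from the top of 15838 probe sets. It was 2.38 ± 0.19 (adjusted p = 5.14e-06) at 6 h and 1.92 ± 0.19 (adjusted p = 1.64e-05) at 12 h, and all 3 calls stood under each of the 18 alternative analyses. The later steps down were not called: the log2 difference of 6 h from 3 h was -0.68 (95% interval -1.09 to -0.27, adjusted p = 0.147), and that of 12 h from 6 h was -0.46 (-0.87 to -0.05, adjusted p = 0.224).

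The promoters of the 4 genes that carried most of the higher calls are shown to set their sequences beside these time courses. Each is the 250 bases before the annotated start in RefSeq on GRCm38.p6, printed 5' to 3' on the strand of the gene. The windows are chr7:28379229-28379478 (minus strand) for Zfp36, chr12:80113014-80113263 (minus strand) for Zfp36l1, chr1:134079156-134079405 (minus strand) for Btg2 and chr10:96616751-96617000 (plus strand) for Btg1. Capitals mark matches, on either strand, to 4 motifs: the CArG box, known as the binding sequence of serum response factor; TGACGTCA, the cyclic AMP response element; its shorter form TGACG, which overlaps it; and the TATA box TATAAA.
Zfp36: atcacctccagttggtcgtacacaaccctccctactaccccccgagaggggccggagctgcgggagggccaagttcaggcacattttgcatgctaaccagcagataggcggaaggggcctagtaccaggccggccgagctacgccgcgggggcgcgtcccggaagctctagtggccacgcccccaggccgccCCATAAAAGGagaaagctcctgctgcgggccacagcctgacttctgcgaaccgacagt
Zfp36l1: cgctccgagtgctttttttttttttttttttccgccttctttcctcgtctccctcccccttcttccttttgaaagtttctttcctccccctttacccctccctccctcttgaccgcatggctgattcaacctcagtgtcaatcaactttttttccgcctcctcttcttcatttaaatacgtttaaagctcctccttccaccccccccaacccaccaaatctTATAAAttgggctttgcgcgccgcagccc
Btg2: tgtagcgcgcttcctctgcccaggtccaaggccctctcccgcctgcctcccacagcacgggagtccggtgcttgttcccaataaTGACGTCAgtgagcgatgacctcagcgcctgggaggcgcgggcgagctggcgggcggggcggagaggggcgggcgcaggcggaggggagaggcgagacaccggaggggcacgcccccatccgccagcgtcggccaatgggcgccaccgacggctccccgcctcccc
Btg1: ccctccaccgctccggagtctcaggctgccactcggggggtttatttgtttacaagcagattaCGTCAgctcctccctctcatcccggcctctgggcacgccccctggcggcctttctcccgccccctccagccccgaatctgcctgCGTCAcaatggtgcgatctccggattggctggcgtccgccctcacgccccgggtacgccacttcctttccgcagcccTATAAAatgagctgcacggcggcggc
The Zfp36 window held a CArG box that begins 58 bases upstream of the start, a motif present in 1.47% of 32851 mouse promoter windows of the same length. The Btg2 window held TGACGTCA at 166 bases upstream, present in 1.55% of the windows. The Btg1 window held TGACG on the reverse strand, printed as CGTCA, at 187 and 103 bases upstream, a motif present in 17.8% of the windows. TATAAA stood 29 bases upstream in Zfp36l1 and 26 bases upstream in Btg1, and in 12.4% of all windows. A match describes these letters and does not show binding. Of the 8 members, 7 were matched in the table of promoters. Among the windows not printed, that of Khsrp held TGACG on the reverse strand at 209 and 84 bases upstream. Those of Elavl1 and Tnrc6a held none of the 4 motifs. The Tnrc6a window, however, lies wholly inside the annotated span of its gene and the Elavl1 window partly so. Their lack of motifs therefore does not describe the bases before those spans. Whether any motif goes with a time course was not tested.

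Zfp36l1, the second family member, rose about 2-fold and its 2 probe sets moved alike. Probe set 1450644_at read 1055.9 and 1031.5 at 0 h, 2106 and 2405.4 at 3 h, 1954.3 and 2455.2 at 6 h, and 1375.9 and 1919.9 at 12 h. Every later array lay above both 0 h arrays, as for 18.4% of all tested probe sets, and the 12 h pair was the widest apart. Its log2 change was 1.10 ± 0.16 (adjusted p = 0.00132) at 3 h, 1.06 ± 0.16 (adjusted p = 0.000772) at 6 h and 0.64 ± 0.16 (adjusted p = 0.00988) at 12 h. Probe set 1422528_a_at, from the same source sequence, changed by 1.16 ± 0.21 (adjusted p = 0.00554), 0.93 ± 0.21 (adjusted p = 0.00855) and 0.62 ± 0.21 (adjusted p = 0.0414) at these times. The 12 h call rested on 12 h array 2, since without it the changes were 0.40 (adjusted p = 0.103) and 0.31 (adjusted p = 0.330). It was also lost without either 0 h array, with adjusted p of 0.0503 and 0.0610 for 1450644_at and 0.103 and 0.176 for 1422528_a_at. Probe set 1422528_a_at in addition lost its 12 h call without either 3 h array, its 3 h call without 0 h array 2 or 3 h array 2, and its 6 h call without 0 h array 2 or 6 h array 2, with adjusted p between 0.0546 and 0.0647.

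Zfp36l2, the third member of the family in these cells, rose less and more briefly. Its bright probe set 1437626_at read 1734.2 and 1765.1 at 0 h, 2571.5 and 2526.3 at 3 h, 2288 and 1922.8 at 6 h, and 1510.9 and 1824.5 at 12 h. The 3 h and 6 h arrays lay above both 0 h arrays, whereas the 12 h arrays overlapped them. Of all tested probe sets, 32% lay above in this way at 3 h and 33.3% at 6 h. The log2 change was 0.54 ± 0.13 (adjusted p = 0.021) at 3 h, 0.26 (95% interval -0.02 to 0.54, adjusted p = 0.175) at 6 h and -0.08 (-0.35 to 0.20, adjusted p = 0.696) at 12 h. The 3 h call was lost without any 1 of the 0 h and 3 h arrays (adjusted p 0.104 to 0.134) and with arrays scaled to the same median, where the change was 0.41 (adjusted p = 0.0678). Dimmer probe set 1451034_at, with signals of 56.2 to 120.7, was not called at any time, and 1439054_at, with signals of 5.9 to 20.5, was too dim to be tested.

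Elavl1, which encodes HuR and is known to compete with ZFP36 for AU-rich elements in other cells, had 2 probe sets, neither of them called. Probe set 1431037_a_at read 1584.2 and 1300 at 0 h, 1243.2 and 1324.1 at 3 h, 1130 and 1286.8 at 6 h, and 1248.4 and 1353.5 at 12 h. The 0 h arrays overlapped those of 3 h and 12 h and lay above those of 6 h, as for 26.9% of all tested probe sets at 6 h. Its log2 changes were -0.16 (95% interval -0.45 to 0.12, adjusted p = 0.517), -0.25 (-0.53 to 0.04, adjusted p = 0.207) and -0.14 (-0.43 to 0.14, adjusted p = 0.448) at 3, 6 and 12 h. Probe set 1448151_at changed by -0.33 (-0.71 to 0.06, adjusted p = 0.305), -0.20 (-0.59 to 0.18, adjusted p = 0.464) and -0.16 (-0.54 to 0.23, adjusted p = 0.547). These intervals reach no further than 0.23 upward, but they leave room for a moderate fall. None of the 6 changes had an unadjusted p under 0.05 in limma.

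Btg2, an antiproliferative gene that binds the CAF1 subunit of the deadenylase, rose and returned. Probe set 1416250_at read 1230.3 and 1144.8 at 0 h, 3101.4 and 2888.6 at 3 h, 2285.9 and 1892.1 at 6 h, and 1356.3 and 1296 at 12 h. The pairs of arrays of 3, 6 and 12 h did not overlap with each other, and the 12 h pair stayed just above the 0 h pair. Its log2 change was 1.33 ± 0.12 (adjusted p = 3.61e-05) at 3 h, 0.81 ± 0.12 (adjusted p = 0.000701) at 6 h and 0.16 (95% interval -0.11 to 0.42, adjusted p = 0.352) at 12 h. Probe set 1448272_at, from the same source sequence, read 408.4 and 444.5 at 0 h, 1129.9 and 1169.5 at 3 h, 592.7 and 564.4 at 6 h, and 382 and 255.6 at 12 h. It was above its 0 h arrays at 3 and 6 h and below them at 12 h. Of all tested probe sets, 32% lay above both 0 h arrays at 3 h, 33.3% at 6 h and 35.6% at 12 h, and 32.1% lay below them at 12 h. Its log2 change was 1.42 ± 0.17 (adjusted p = 0.000332) at 3 h, 0.43 (0.06 to 0.81, adjusted p = 0.0994) at 6 h and -0.44 (-0.82 to -0.06, adjusted p = 0.0737) at 12 h, so the probe sets differ in sign at 12 h. Without 12 h array 1 the 12 h change of 1448272_at was called at -0.72 (adjusted p = 0.00805), and without either 12 h array its 6 h change was called (adjusted p = 0.0366 and 0.0347).

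The decline of Btg2 was the one step between later times that was called among the members. From 3 to 6 h, 1 of 18 member probe sets was called, 1448272_at, at a log2 difference of -0.98 ± 0.17 (adjusted p = 0.0197), where 0.972% of all probe sets were called. The other probe set, 1416250_at, differed by -0.52 (95% interval -0.79 to -0.26, adjusted p = 0.0852). From 6 to 12 h both were called, at -0.87 ± 0.17 (adjusted p = 0.0204) for 1448272_at and -0.65 ± 0.12 (adjusted p = 0.0151) for 1416250_at, where 2.97% of all probe sets were called and 2.41% were lower. The count at 6 h against 3 h fell to 0 without 3 h array 1, 3 h array 2 or 6 h array 1, with 5 or 6 member probe sets at an unadjusted p under 0.05 in limma. That at 12 h against 6 h was 0 without 6 h array 1 or 12 h array 2, with 7 or 8 at an unadjusted p under 0.05, and 1 without 12 h array 1.

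Btg1, the close relative of Btg2, rose by a small amount and did not return within 12 h. Probe set 1426083_a_at read 4047.1 and 3696.7 at 0 h, 5027.8 and 5595.6 at 3 h, 5055.7 and 5279.9 at 6 h, and 5770.5 and 5195.2 at 12 h. All later arrays lay above both 0 h arrays, as for 18.4% of all tested probe sets, and the later times overlapped one another. Its log2 change was 0.45 ± 0.11 (adjusted p = 0.0264) at 3 h, 0.42 ± 0.11 (adjusted p = 0.0196) at 6 h and 0.50 ± 0.11 (adjusted p = 0.0046) at 12 h. Probe set 1437455_a_at gave changes of nearly the same size with wider spread, 0.45 (95% interval 0.06 to 0.84, adjusted p = 0.157), 0.45 (0.06 to 0.84, adjusted p = 0.0977) and 0.43 (0.04 to 0.82, adjusted p = 0.0843), and was called at 6 h without 6 h array 1 (adjusted p = 0.0367) and at 12 h without either 6 h array (adjusted p = 0.0478 and 0.0474). The calls of 1426083_a_at were sensitive. The 3 h call was lost without any 1 of the 0 h and 3 h arrays (adjusted p 0.0757 to 0.211), the 6 h call without 0 h array 1, 0 h array 2 or 6 h array 2 (0.0559 to 0.162), and the 12 h call without 0 h array 2 (0.0573). With the median of every array made equal, the 3 h and 6 h calls were lost (0.105 and 0.0844).

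**Figure D2:**
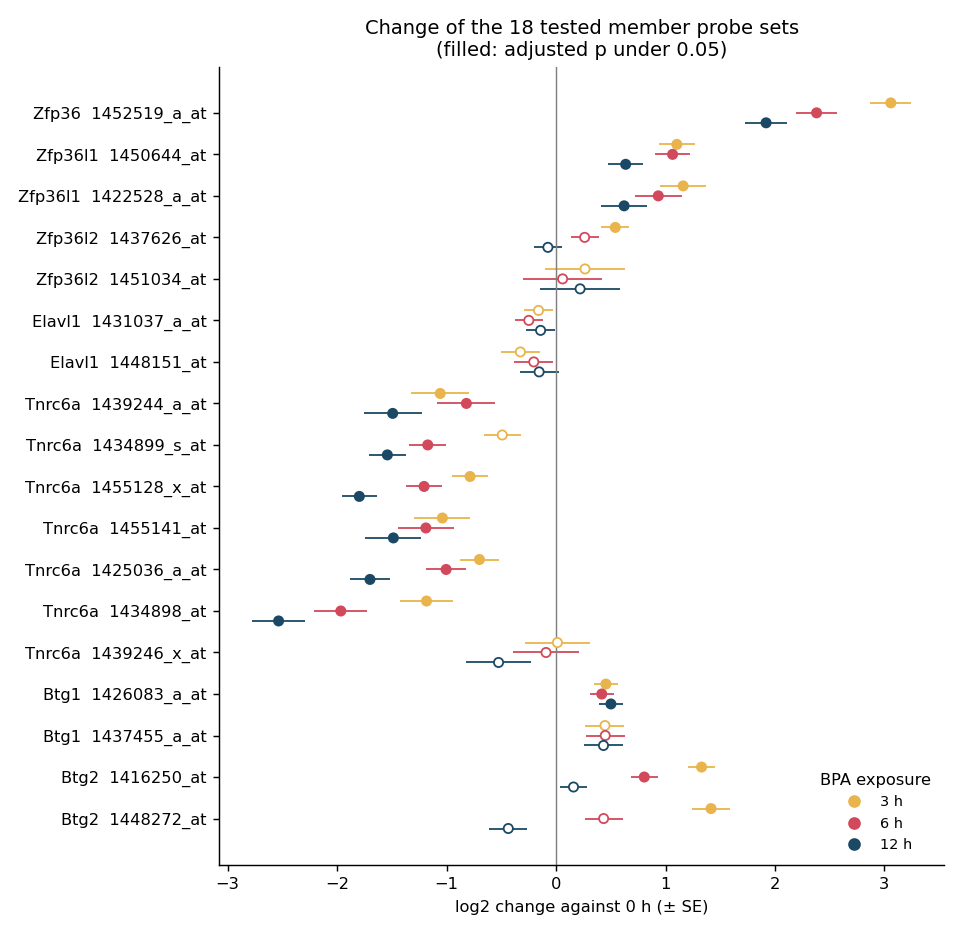
Log2 change against 0 h (points, with bars of 1 SE) of the 18 tested member probe sets at 3, 6 and 12 h, filled where the adjusted p was under 0.05. The Zfp36, Zfp36l1, Btg1 and Btg2 points lie mostly right of 0, from 0.42 to 3.06 where called, and 6 of the 7 Tnrc6a probe sets lie left of 0 at every time, down to -2.54.

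Tnrc6a, the GW182 scaffold of microRNA silencing, was the gene that fell, and it had 8 probe sets, 7 of them bright enough to test. The deepest fall was on 1434898_at, which read 438.6 and 433 at 0 h, 195.1 and 179.9 at 3 h, 133.4 and 83.2 at 6 h, and 66.4 and 70.9 at 12 h. No later array overlapped those of 0 h. Its log2 change was -1.18 ± 0.24 (adjusted p = 0.0105) at 3 h, -1.97 ± 0.24 (adjusted p = 0.000171) at 6 h and -2.54 ± 0.24 (adjusted p = 1.36e-05) at 12 h, a 5.80-fold fall that ranked 33 from the bottom of 15838 probe sets. The brightest probe set, 1439244_a_at, read 1374.9 and 1255.7 at 0 h, 688.7 and 570 at 3 h, 980.4 and 559.5 at 6 h, and 605.8 and 351.4 at 12 h. Its arrays of 6 h lay far apart, and all later arrays were below those of 0 h. It changed by -1.06 ± 0.26 (adjusted p = 0.028) at 3 h, -0.82 ± 0.26 (adjusted p = 0.0444) at 6 h and -1.49 ± 0.26 (adjusted p = 0.00105) at 12 h.

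The other Tnrc6a probe sets followed, with 1 exception. Probe set 1455128_x_at read 600.1 and 550.1 at 0 h, 347.7 and 312.9 at 3 h, 234.7 and 254.7 at 6 h, and 151.2 and 168.4 at 12 h. Probe set 1425036_a_at read 467.3 and 525.7 at 0 h, 334.4 and 272.7 at 3 h, 240.3 and 245.7 at 6 h, and 133.5 and 161.8 at 12 h. Each of these read lower at every successive time, without overlap between times, and at 12 h their log2 changes were -1.80 ± 0.16 (adjusted p = 9e-06) and -1.70 ± 0.18 (adjusted p = 2.78e-05). Probe set 1434899_s_at read 740.5 and 667.5 at 0 h, 468.9 and 527.9 at 3 h, 267.4 and 353.3 at 6 h, and 222.7 and 250.6 at 12 h. Probe set 1455141_at read 541.3 and 547 at 0 h, 257.6 and 263.9 at 3 h, 164.9 and 331 at 6 h, and 202.8 and 176.2 at 12 h. At 3 h 1434899_s_at was not called, at -0.49 (adjusted p = 0.0979), but it was with the median of every array made equal (-0.62, adjusted p = 0.0354) or with only the 2 times fitted (-0.49, adjusted p = 0.0331). Both were below their 0 h arrays on all later arrays, with 12 h changes of -1.54 ± 0.17 (adjusted p = 3.53e-05) and -1.49 ± 0.26 (adjusted p = 0.000881). The exception was 1439246_x_at, with 140.5 to 165.8 at 0 h and 75.2 to 168.1 later, which changed by 0.01 (95% interval -0.64 to 0.67), -0.09 (-0.75 to 0.56) and -0.53 (-1.18 to 0.13) with adjusted p of 0.988, 0.866 and 0.206. It was called at 12 h without 12 h array 1 (-0.95, adjusted p = 0.0426).

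Over the 7 tested probe sets of Tnrc6a the median log2 change was -0.79 at 3 h, -1.17 at 6 h and -1.54 at 12 h, with 5 called lower at 3 h and 6 at both later times. All later arrays lay below both 0 h arrays for 6 of the 7, where 15.3% of all tested probe sets did so. They share a gene and partly a source sequence, and probe sets of the _s_at and _x_at kind may detect more than 1 transcript, so they are not replicates of the fall. No step of Tnrc6a between later times was called by limma, although several intervals lay below 0, such as that of 1425036_a_at from 6 to 12 h at -0.70 (-1.09 to -0.30, adjusted p = 0.0636). All 6 calls at 12 h stood under every alternative analysis, and so did the 6 h calls except that of 1439244_a_at. That call was lost without 0 h array 1, 0 h array 2, 3 h array 1, 3 h array 2 or 6 h array 2, with changes from -0.88 to -0.42 and adjusted p between 0.0564 and 0.277. Each 3 h call was lost when some 0 h or 3 h array was left out. Without 0 h array 1 or 2 or 3 h array 2, none of the 5 was called, and adjusted p lay between 0.0634 and 0.224, while without 3 h array 1 only 1455128_x_at was still called. The eighth probe set, 1439245_at, read 4 to 49 and was not tested.

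**Figure D3:**
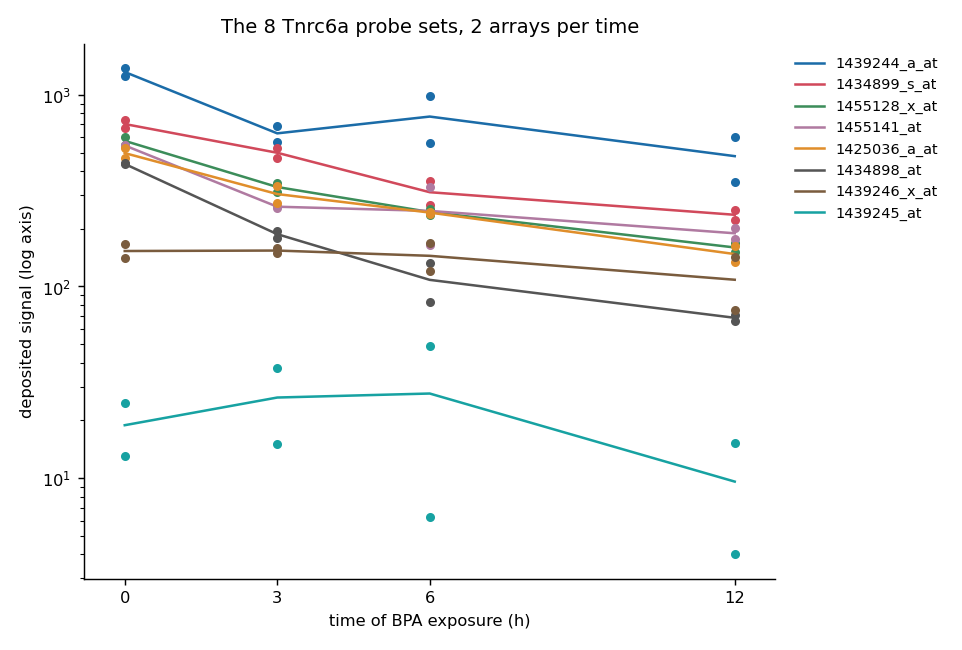
Signal of each array (points, log axis) against hours of BPA exposure for the 8 Tnrc6a probe sets, with lines joining the means of the 2 arrays of a time. The lines of 6 probe sets end lowest at 12 h, with every later point below both 0 h points, whereas 1439246_x_at overlaps its 0 h signals and the dim 1439245_at scatters between 4 and 49.

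The other tested genes of the microRNA silencing list moved the way of Tnrc6a or were not called. The list held 19 genes, of which 12 were on the table and 11 were tested on the brightest probe set of each gene. Ago1, Ago3, Ago4, Drosha, Wtip, Trim71 and Lin28b were not on the table. The list was chosen with results of these arrays known, so its direction is a description. At 3 h 1 gene was lower, at 6 h 5 were lower and at 12 h 7 were lower, where 2.76%, 8.56% and 16.2% of all genes tested were lower at these times. No gene of the list was called higher by limma, and none had a positive change with an unadjusted p under 0.05. The median log2 change of the list was -0.10, -0.53 and -0.76, beside 0.06, 0.07 and 0.06 over all genes. Without 0 h array 1 the 6 h count was 3 and the 12 h count 4, and without 0 h array 2 the 12 h count was 4. The 3 h count was 0 without any 1 of the 0 h and 3 h arrays, with 2 to 4 genes at an unadjusted p under 0.05, and 2 without either 6 h array.

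Both paralogs of Tnrc6a were among the genes that fell. Tnrc6c read 401.9 and 399.7 at 0 h, 216.8 and 194 at 3 h, 231.7 and 174 at 6 h, and 167.5 and 135.5 at 12 h. Tnrc6b read 623.3 and 631.6 at 0 h, 645.8 and 533.1 at 3 h, 367.2 and 332.1 at 6 h, and 216.3 and 267.8 at 12 h. Tnrc6c was thus below its 0 h arrays from 3 h, with log2 changes of -0.94 ± 0.20 (adjusted p = 0.0132), -0.97 ± 0.20 (adjusted p = 0.00502) and -1.37 ± 0.20 (adjusted p = 0.000304), while Tnrc6b overlapped at 3 h and was called at 6 h (-0.83 ± 0.16, adjusted p = 0.00338) and 12 h (-1.35 ± 0.16, adjusted p = 6.55e-05). A second probe set of Tnrc6c gave -0.94, -0.93 and -1.63, all called. Likeness to Tnrc6a was read on its brightest probe set alone, 1439244_a_at, whose 6 h arrays lay far apart. Among 8984 other genes Tnrc6c was closest to this probe set, with a root mean square difference of 0.20 (log2 relative to 0 h) over the 8 arrays. Tmem71 and Gpr137b followed at 0.28 each. Likeness to the other Tnrc6a probe sets, most of which fell more steadily, was not computed.

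Mov10, an RNA helicase that associates with Argonaute, had the largest fall of the list. It read 195.8 and 179.2 at 0 h, 105.4 and 74 at 3 h, 61.2 and 39.4 at 6 h, and 31.4 and 27.7 at 12 h, a log2 change of -2.38 ± 0.36 (adjusted p = 0.000358) at 12 h on a dim probe set. Dicer1, the nuclease that cuts precursor hairpins into microRNAs, read 296.8 and 277.1 at 0 h, 175.4 and 174.9 at 3 h, 134.2 and 109.3 at 6 h, and 148.4 and 180.4 at 12 h. Its fall was deepest at 6 h on this probe set (-1.19 ± 0.21, adjusted p = 0.00179), and its second probe set fell by 0.80 at 6 h and by 1.24 at 12 h. Ago2, the slicing Argonaute, fell by 0.53 at 6 h (adjusted p = 0.04) and by 0.53 at 12 h (adjusted p = 0.0295). The Argonaute-binding LIM proteins Ajuba and Limd1 were called at 12 h alone, at -0.91 ± 0.16 (adjusted p = 0.00121) and -0.48 ± 0.16 (adjusted p = 0.0332). Ago2, Ajuba and Limd1 were named after their values were seen.

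**Figure D4:**
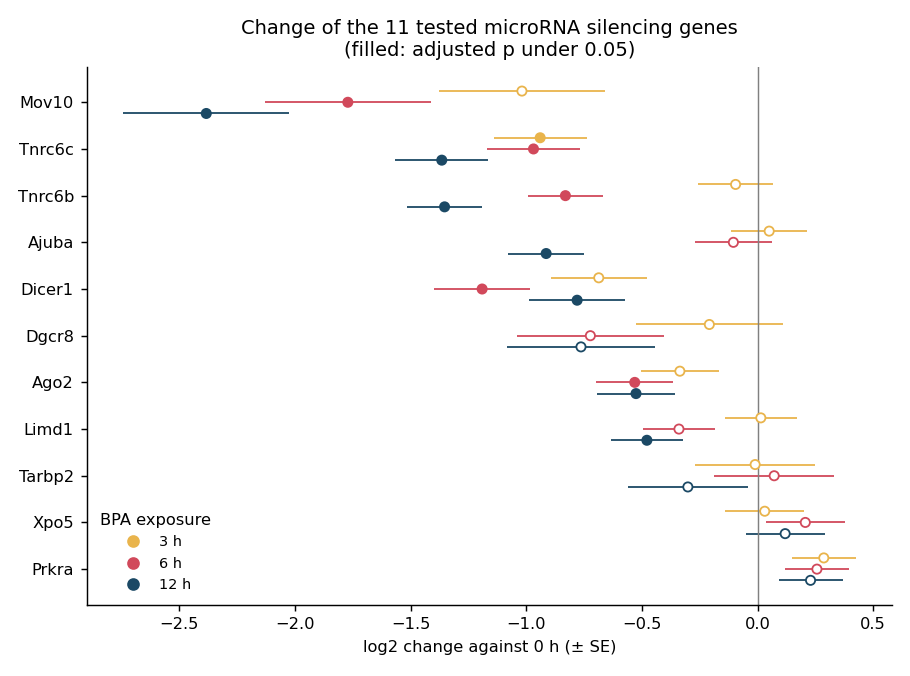
Log2 change against 0 h (points, with bars of 1 SE) of the 11 tested microRNA silencing genes at 3, 6 and 12 h, filled where the adjusted p was under 0.05. At 12 h Mov10 and the Tnrc6 paralogs lie furthest left, followed by Ajuba and Dicer1, and Tarbp2, Xpo5 and Prkra lie nearest to 0 and are unfilled at every time.

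The deadenylase list, which holds genes of the CCR4-NOT complex recruited by ZFP36 and BTG proteins, had calls in both directions at 12 h only. Cnot1, Cnot10, Cnot11 and Pan3 of this list were not on the table. Of 12 CCR4-NOT and other deadenylase genes tested, 2 were higher and none lower at 3 h, 3 were higher and none lower at 6 h, and 4 were higher and 3 lower at 12 h, where 7.15%, 15.1% and 19.1% of all genes were higher and 2.76%, 8.56% and 16.2% lower. None of the 12 had a negative change with an unadjusted p under 0.05 at 3 or 6 h. Noct, a circadian gene of the deadenylase-like family, read 395.9 and 467.8 at 0 h, 1392.8 and 1297.2 at 3 h, 1750.6 and 1931 at 6 h, and 1648.2 and 1715.6 at 12 h. Its log2 change reached 2.07 ± 0.12 (adjusted p = 5.96e-07) at 6 h. Cnot4, a ubiquitin ligase of the complex, rose by 1.36 ± 0.15 (adjusted p = 3.52e-05) at 12 h on its brightest probe set, while 4 others gave 0.22 to 0.74, 2 of them called. The 12 h calls among the catalytic CCR4-NOT subunits, which were not a planned group, were all lower. Cnot6 fell by 0.93 at 12 h (adjusted p = 4.05e-05) and by 0.62 to 0.99 on its other probe sets, all called. Cnot7 fell by 0.51 at 12 h (adjusted p = 0.0115) on 1 probe set, but its others gave 0.24 and -0.04, and the call was lost without 0 h array 2 (-0.31, adjusted p = 0.156) or 12 h array 2 (-0.49, adjusted p = 0.0565). Cnot6l, named after its values were seen, fell by 0.46 at 12 h (adjusted p = 0.0158), and Cnot8 was not called (-0.09, adjusted p = 0.620). The 12 h count of this list was 4 instead of 7 without 0 h array 2 or 12 h array 2.

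Of 11 decapping and 5' decay genes tested, 2 were lower at 3 h, 2 at 6 h and 2 at 12 h, with 1 higher at 12 h. Dcp1b, Dcp2, Edc3, Patl1, Lsm5 and Lsm6 of this list were not on the table. The share lower over all genes was 2.76%, 8.56% and 16.2% at these times, and 19.1% were higher at 12 h, so the 12 h counts are near the background. The higher one at 12 h was Edc4, at 0.36 (adjusted p = 0.0477), a call that was lost with quantile normalization (0.32, adjusted p = 0.0792). Lsm2, a subunit of the ring that binds deadenylated 3' ends, fell by 0.62 (adjusted p = 0.0312), by 0.98 (adjusted p = 0.0011) and by 1.36 (adjusted p = 5.61e-05) at 3, 6 and 12 h. Its partner Lsm3 fell by 0.68 (adjusted p = 0.0023) at 6 h, and Ddx6, a helicase that links silencing to decapping, fell by 0.87 (adjusted p = 0.000107) at 12 h and was called on all 3 of its probe sets. The 3 h count of 2 was 0 without any 1 of the 0 h and 3 h arrays, with 2 at an unadjusted p under 0.05. Of 12 exosome and 3' decay genes, none was called at 3 h, 2 were higher at 6 h, and 5 were higher and 1 lower at 12 h. Over all genes 15.1% were higher at 6 h, and 19.1% were higher and 16.2% lower at 12 h. None of the 12 had an unadjusted p under 0.05 at 3 h in limma. At 12 h Dis3, the exosome nuclease, was higher by 0.83 ± 0.11 (adjusted p = 0.000152). The exosome subunits Exosc4 and Exosc2 were higher by 0.73 (adjusted p = 0.00262) and 0.64 (adjusted p = 0.00936), but another Exosc4 probe set gave -0.30, and Exosc2 was not called without 0 h array 2 (0.43, adjusted p = 0.119) or 12 h array 1 (0.52, adjusted p = 0.0811). Wdr61 was the lower one at 12 h, at -0.55 (adjusted p = 0.0213) on its brightest probe set, while its other tested probe sets gave 0.60 and -0.29, neither called. The exosome count at 6 h was 0 or 1 without any 1 array other than 6 h array 2 and 0 with quantile normalization, and that at 12 h was 3 without 0 h array 2, 12 h array 1 or 12 h array 2.

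Of other RNA-binding proteins of AU-rich elements and stability, 21 were tested, with 2 higher and none lower at 3 h, 3 higher and 3 lower at 6 h and 5 higher and 5 lower at 12 h. Over all genes 7.15% were higher and 2.76% lower at 3 h, 15.1% and 8.56% at 6 h, and 19.1% and 16.2% at 12 h, so the 12 h counts are near the background. The 3 h count was 1 without any 1 of the 0 h and 3 h arrays. Hnrnpdl, a relative of the AU-rich element binder AUF1, was higher by 1.27 ± 0.12 (adjusted p = 1.36e-05) at 12 h on its brightest probe set, though its 6 probe sets ran from -0.56 to 1.48. Pum2, which binds Pumilio elements, fell by 1.13 (adjusted p = 2.43e-05) at 12 h, with -0.37 and -0.34 on its other probe sets, neither called. Igf2bp3, a stabilising binder, fell by 0.96 (adjusted p = 8.37e-05) and was called on 3 of its 4 probe sets, while the fourth gave -0.20 (adjusted p = 0.364). Rc3h2 (Roquin-2), a destabiliser of stem-loop transcripts, fell by 0.96 (adjusted p = 0.00604). Tob2, the tested relative of the BTG family with a call, fell by 1.14 (adjusted p = 0.00728) at 12 h, a call that was lost without 0 h array 2 (-0.88, adjusted p = 0.0858) or 12 h array 1 (-0.91, adjusted p = 0.0694). Its other probe sets ran from -1.53 to -0.12, 1 of the 3 called. Without 0 h array 2 the 12 h count of the RNA-binding proteins was 6, with 2 higher and 4 lower, and the 6 h count was 2 without either 0 h array and 3 without 6 h array 1. Of 8 nonsense-mediated decay genes, none was called at 3 h, 1 was higher and 1 lower at 6 h, and 1 was higher and none lower at 12 h. At 3 h 3 had a positive and 2 a negative change with an unadjusted p under 0.05 in limma. The 6 h and 12 h counts are near the shares over all genes given above. Upf2 was the higher one at 12 h (1.02 ± 0.13, adjusted p = 0.000138). Rbm8a was the lower one at 6 h (-0.44, adjusted p = 0.0121), while its other probe set gave 0.21 and was not called.

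Among transcripts known as targets of ZFP36 in other cells, about as many were called higher as were not at 3 and 6 h, and lower calls were made mostly at 12 h. Of 28 on the table, 17 were bright enough to test, and many cytokines were not. At 3 h 8 were higher and none lower, at 6 h 9 higher and 1 lower, and at 12 h 8 higher and 5 lower. Over all genes 7.15%, 15.1% and 19.1% were higher and 2.76%, 8.56% and 16.2% lower at these times. The 6 h lower count was 3 with the median of every array made equal, and 2 with quantile normalization. No target had a negative change with an unadjusted p under 0.05 at 3 h. The median log2 change was 0.48, 0.55 and 0.29 at these times, beside 0.06, 0.07 and 0.06 over all genes. Many of these genes are themselves early response genes, and the list was chosen with results of these arrays known, so its direction is a description.

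Fos, an immediate early transcription factor, read 184.3 and 163.4 at 0 h, 2440.4 and 2596.3 at 3 h, 2880.7 and 2673.6 at 6 h, and 1241.2 and 1340.7 at 12 h, with a log2 change of 3.94 ± 0.12 (adjusted p = 4.18e-09) at 6 h. Vegfa, the vascular growth factor, read 151.7 and 185.1 at 0 h, 670 and 494.3 at 3 h, 1420.8 and 1204.4 at 6 h, and 1683.6 and 1665.1 at 12 h, with a log2 change of 3.26 ± 0.17 (adjusted p = 1.12e-07) at 12 h. Fos was lower at 12 h than at 6 h on every array, as Zfp36 was, whereas both Vegfa arrays were higher at 12 h. Plk3, a stress kinase, was higher by 3.46 ± 0.20 (adjusted p = 2.44e-07) at 12 h, and Ptgs2, the inducible cyclooxygenase, by 2.82 ± 0.18 (adjusted p = 6.28e-07). The 5 that were lower at 12 h were Lats2 (-1.71), Ccnd1 (-1.04), Dusp1 (-0.70), Ier3 (-0.60) and Plaur (-0.53), named after their values were seen; they encode a growth-inhibiting kinase, cyclin D1, a phosphatase of MAP kinases, an early response protein and the urokinase receptor.

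The rising members, each on its brightest probe set, were set beside the other tested genes. The measure was the root mean square difference of their log2 profiles over the 8 arrays. Closest to Zfp36 were Ier2 at 0.27, Errfi1 at 0.29 and Egr2 at 0.43, and Ier2 changed by 3.08, 2.87 and 1.75 at 3, 6 and 12 h. Closest to Btg2 were Foxa2 at 0.12, Pvr at 0.16 and Lrig1 at 0.18. Closest to Zfp36l1 were Dlx3 at 0.09, Zscan22 at 0.10 and 2700099C18Rik at 0.14. All profiles share the same 8 arrays and the same 0 h pair, and likeness was not tested.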

How the data were processed

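Values are linear intensities per probe set and array, as deposited by the authors for 8 one-colour arrays; software and summary algorithm: not given in the sources used here. By the values, each array had been scaled to 1 trimmed mean (without the outer 2%, between 499.955 and 499.959), so a general change of RNA would not be seen. Medians were 150.5 to 169.6. Groups and replicate numbers come from the sample titles.

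Controls (64 of 22690 probe sets) were left out; 20380 of the others had 1 gene symbol, 691 several and 1555 none; 20351 symbols were updated through Entrez identifiers to RefSeq's GRCm38.p6 table. Values were taken as log2(signal + 7.9), with the 10th percentile of all signals as offset. The 15838 probe sets with a mean above the 30th percentile were fitted with limma 3.58.1 in R 4.3.3 (lmFit, eBayes with trend, 1 mean per time, 4 residual degrees of freedom), two-sided, and adjusted by Benjamini-Hochberg over all of them. Of the 20 member probe sets 18 were tested. The fit was also run on simulated data with independent noise whose spread depended on mean signal alone. That run therefore does not test the calls made here. A gene of a list was read on its probe set with the highest mean; 8985 genes had such a probe set tested.

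The members and the 8 lists (142 entries, 110 on the table, 94 tested) were chosen with earlier results of these data known. All member probe sets were named, and from each list up to 4 called genes with the largest change whose treated arrays lay beyond both 0 h arrays. For likeness, the 3 closest genes were named for each member with a time range of at least 1 on the log2 scale, read on its probe set with the highest mean. Alternatives were quantile normalization, arrays scaled to the same median, other offsets and filters, no trend, fits of the 2 compared groups alone, 1 probe set per gene, the replicate block and each array left out.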

Additional observations from a re-analysis of the deposited data

Results flagged for a closer look

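The Btg2 response differed between the later times by the test of the difference itself. Probe set 1448272_at was lower at 6 h than at 3 h by a log2 difference of -0.98 (limma, adjusted p = 0.0197) and lower at 12 h than at 6 h by -0.87 (adjusted p = 0.0204). Probe set 1416250_at was lower at 12 h than at 6 h by -0.65 (adjusted p = 0.0151). These 3 steps were lower on both arrays of the later time than on either array of the earlier one. No other member probe set passed the test between 3 and 6 h or between 6 and 12 h.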

How the results depend on the processing

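Of 54 member changes against 0 h, 33 were called and 19 of these stood under every alternative in which they could be tested. No called change reversed, while 12 alternative values of changes that were not called took the other sign. Of 930 alternative values 852 kept their side of the threshold, 65 lost it and 13 gained it. Without the intensity trend the members called were 7 instead of 12 at 3 h, 0 instead of 1 at 6 h against 3 h (6 at an unadjusted p under 0.05) and 0 instead of 2 at 12 h against 6 h (5 at an unadjusted p under 0.05); the last was also 0 when only the 2 groups were fitted (7 at an unadjusted p under 0.05). The cause was not tested. With each array left out, member calls ranged from 4 to 12 at 3 h, 8 to 12 at 6 h, 7 to 12 at 12 h, 0 to 1 at 6 h against 3 h, 0 to 3 at 12 h against 6 h and 11 to 13 over the time course. Silencing genes called then ranged from 0 to 2 at 3 h, 3 to 5 at 6 h and 4 to 8 at 12 h, and ZFP36 targets from 7 to 9, 8 to 10 and 12 to 13. The 3 h silencing count of 1 was 2 with quantile normalization, with the same median and with a filter at the 50th percentile, and 3 with only the 2 groups; the list alternatives were chosen after seeing the data. With the replicate block, member calls were 13, 12 and 11 at 3, 6 and 12 h, 2 at 6 h against 3 h, 4 at 12 h against 6 h and 14 over the time course, and Btg1 1437455_a_at was called at all 3 times (adjusted p 0.0214, 0.0103 and 0.00835). Deviations of arrays with the same number correlated at 0.00749 to 0.119, small but all positive. Over all probe sets the block gave 1835 calls instead of 1390 at 3 h, 3977 instead of 3457 at 6 h and 5803 instead of 5293 at 12 h. Whether the numbers mark a pairing is not known. The share of higher calls from 6 to 12 h over all probe sets was 44.8% with the same median, against 19.1%. Calls over all probe sets at 3 h were 1390, against 670 without the trend and 508 to 617 without any 1 of the 0 h and 3 h arrays. Signals near the offset, such as those of Mov10 at 12 h and of the untested probe sets, understate changes.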
